A study of Mus musculus with 12 samples.

Results

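The Hox genes encode homeodomain transcription factors that give body segments their identity along the head-to-tail axis. H3K4me2 at their promoters was examined in liver of control and LSD1-LKO mice, together with LSD1 in wild-type liver. The members were the protein-coding genes of GENCODE mouse release 21 with a name of the form Hoxa to Hoxd plus a number, which gave 39 of 21853 protein-coding genes, and 38 of them are described (10 in the Hoxa cluster, 10 in Hoxb, 9 in Hoxc and 9 in Hoxd). Of these 38 genes, 12 had a listed H3K4me2 promoter peak (called marked here) in control liver, 9 in LSD1-LKO liver, and 0 had an LSD1 promoter peak.

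The 3 groups were liver of wild-type C57BL/6 mice (LSD1), liver of LSD1 fl/fl mice given AAV8-TBG-GFP (control, H3K4me2) and liver of LSD1 fl/fl mice given AAV8-TBG-Cre (LSD1-LKO, H3K4me2). Control and LSD1-LKO mice therefore shared the floxed allele, the C57BL/6 strain and an AAV8 injection, and the thyroxine-binding globulin (TBG) promoter limits Cre to hepatocytes, so that other liver cells keep LSD1. The sample labels call the mice of the control group only GFP controls, and the lists hold no measure of LSD1 in the LSD1-LKO liver by which the deletion could be checked. The study injected young adult mice for its liver experiments and then fed them a high-fat diet, with chow-fed mice in some experiments, but its account of the ChIP-seq does not say which mice were used. Each group had 2 ChIP libraries and 2 control libraries, which the labels name as input without antibody and the methods as IgG, 12 samples in all.

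Each deposited list holds peaks, which are intervals with more ChIP reads than the control library, found in both libraries of a group. There were 43891 peaks in the control list, 50675 in the LSD1-LKO list and 14584 in the LSD1 list. With 1 list per group there was no value per animal and no test of a difference, so the values are descriptions of 3 lists, and a gene without a listed peak may still carry signal below the threshold of either library. Fewer marked cells and less mark per cell cannot be told apart in whole liver. Promoter peaks of hepatocyte markers were listed at 4 of 6 genes in control (Alb and Cps1 had none), 6 of 6 in LSD1-LKO and 2 of 6 for LSD1. In control and LSD1-LKO, respectively, they were listed at 0 and 1 of 6 endothelial markers, 1 and 2 of 7 stellate or mesenchymal markers (Reln in both lists and Lrat in LSD1-LKO), 0 and 0 of 7 Kupffer or blood markers, 2 and 2 of 5 cholangiocyte markers (Epcam and Sox9) and 0 and 0 of 5 markers of other tissues. The part of other cell types in the Hox values was not tested.

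In vertebrates the Hox genes lie in 4 clusters, and genes with the same number in different clusters are paralogues. Genes with low numbers are used toward the head and genes with high numbers toward the tail, an order that is also their order on the chromosome. In cells that do not use them, Hox clusters are typically kept silent by Polycomb complexes, whereas MLL-type enzymes methylate H3K4 at Hox genes that are in use. H3K4me2 is found at promoters and enhancers, often over CpG-rich DNA, and LSD1 (Kdm1a) is a demethylase that can remove it.

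Promoter sequences are shown for the members on which the comparison turns. RefSeq windows of 250 bases before to 50 bases after a transcription start (GRCm38.p6) matched 22 of the 38 members with 24 windows. All are written in the direction of the gene, with each CpG in capitals. Covered bases are counted from the intervals of the first-listed library of each list. In Hoxa6 the whole window lay under the control peak and 287 of its 300 bases under the LSD1-LKO peak (chr6:52208623-52208922, minus strand, 26 CpGs). In Hoxd1 the window was covered over 300 bases in control and 85 bases in LSD1-LKO (chr2:74762730-74763029, plus strand, 29 CpGs). By the second-listed library this order was reversed. The LSD1-LKO peak (chr2:74762705-74763456) then spanned the whole Hoxd1 window, and the control peak (chr2:74762866-74763562) began inside it. In Hoxb4 it was covered over 300 bases in control and 0 in LSD1-LKO (chr11:96318017-96318316, plus strand, 14 CpGs). In Hoxa3 it was covered over 118 bases in LSD1-LKO and 0 in control (chr6:52213018-52213317, minus strand, 20 CpGs). Hoxd13 had no peak in any list over a window with 37 CpGs (chr2:74667975-74668274, plus strand).
Hoxa6: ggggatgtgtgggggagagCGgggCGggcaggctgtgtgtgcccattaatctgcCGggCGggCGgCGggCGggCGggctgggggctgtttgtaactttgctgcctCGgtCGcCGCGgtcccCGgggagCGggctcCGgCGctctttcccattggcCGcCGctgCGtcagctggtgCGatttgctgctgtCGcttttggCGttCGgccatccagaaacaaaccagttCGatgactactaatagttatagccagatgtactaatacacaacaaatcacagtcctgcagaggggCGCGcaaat
Hoxd1: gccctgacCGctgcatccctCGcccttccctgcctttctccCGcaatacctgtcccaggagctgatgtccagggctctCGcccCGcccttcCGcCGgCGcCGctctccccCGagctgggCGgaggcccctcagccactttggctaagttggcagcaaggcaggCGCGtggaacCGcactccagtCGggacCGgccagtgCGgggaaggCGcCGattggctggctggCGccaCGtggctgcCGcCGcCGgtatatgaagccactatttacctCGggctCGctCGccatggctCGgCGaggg
Hoxb4: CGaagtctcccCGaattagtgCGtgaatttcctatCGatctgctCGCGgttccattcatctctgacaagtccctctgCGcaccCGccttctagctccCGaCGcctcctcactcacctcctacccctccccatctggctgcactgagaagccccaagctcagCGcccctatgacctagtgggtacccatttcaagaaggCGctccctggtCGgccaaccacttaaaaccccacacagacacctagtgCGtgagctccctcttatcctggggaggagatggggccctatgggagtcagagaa
Hoxa3: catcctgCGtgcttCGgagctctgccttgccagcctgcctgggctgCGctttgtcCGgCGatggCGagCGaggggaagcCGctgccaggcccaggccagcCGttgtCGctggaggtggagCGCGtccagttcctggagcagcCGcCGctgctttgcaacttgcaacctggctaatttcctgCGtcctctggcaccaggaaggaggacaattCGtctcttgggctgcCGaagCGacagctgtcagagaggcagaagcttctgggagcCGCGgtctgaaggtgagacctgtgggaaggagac
Hoxd13: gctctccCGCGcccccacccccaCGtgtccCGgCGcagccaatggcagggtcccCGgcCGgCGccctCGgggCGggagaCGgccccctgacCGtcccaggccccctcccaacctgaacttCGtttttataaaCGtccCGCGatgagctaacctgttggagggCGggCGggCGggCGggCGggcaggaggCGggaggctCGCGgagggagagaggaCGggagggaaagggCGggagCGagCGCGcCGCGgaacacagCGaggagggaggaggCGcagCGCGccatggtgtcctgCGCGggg

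The middle 300 bases of the highest-ranking Hox promoter peak of each H3K4me2 list are also shown, read from GRCm38.p6 in the direction of the gene. They are those of Hoxd9 in control (chr2:74697858-74698157, plus strand, 30 CpGs) and Hoxa7 in LSD1-LKO (chr6:52221304-52221603, minus strand, 22 CpGs).
Hoxd9: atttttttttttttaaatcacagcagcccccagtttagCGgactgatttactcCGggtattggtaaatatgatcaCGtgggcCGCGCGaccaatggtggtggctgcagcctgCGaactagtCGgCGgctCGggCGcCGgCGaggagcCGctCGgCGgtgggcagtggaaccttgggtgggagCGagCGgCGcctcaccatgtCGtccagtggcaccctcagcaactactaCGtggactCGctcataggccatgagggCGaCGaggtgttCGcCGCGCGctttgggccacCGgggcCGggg
Hoxa7: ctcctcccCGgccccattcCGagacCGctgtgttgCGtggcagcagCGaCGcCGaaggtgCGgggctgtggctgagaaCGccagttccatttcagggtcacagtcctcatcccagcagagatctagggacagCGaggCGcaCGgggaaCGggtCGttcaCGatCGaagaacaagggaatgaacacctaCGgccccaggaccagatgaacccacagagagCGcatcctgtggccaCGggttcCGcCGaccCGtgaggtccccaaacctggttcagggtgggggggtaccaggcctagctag

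The RefSeq windows of Hox genes held a median of 14.5 CpGs (range 4 to 45, the highest in Hoxa13), compared with 7 in all 32851 windows. At least 10 CpGs were present in 17 of the 24 Hox windows (70.8%) and in 43.5% of all windows. Dense CpGs and listed peaks did not always coincide, as Hoxd13 shows.

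Promoter peaks were rarer at Hox genes than at coding genes as a whole, and the list of LSD1-LKO held fewer than that of control. A promoter was 1 kb on either side of any start of a protein-coding transcript, and a peak had to overlap it by at least 1 bp. In control, 12 of 38 Hox genes were marked (31.6%, 95% Wilson interval 19.1% to 47.5%, which covers counting error only), compared with 58.8% of all protein-coding genes. In LSD1-LKO, 9 of 38 were marked (23.7%, 13% to 39.2%), compared with 58.9%. An LSD1 promoter peak was listed for 0 of 38 (interval 0% to 9.18%), compared with 23.6%. Among the 7295 coding genes with a CpG-rich promoter (a GC content of at least 50% and an observed-to-expected CpG ratio of at least 0.6 around some start), the shares were 92.3% in control, 91.6% in LSD1-LKO and 43.9% for LSD1. Of those genes 89.1% were marked in both H3K4me2 lists, 3.15% in control only, 2.52% in LSD1-LKO only and 5.22% in neither.

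CpG-rich promoters were more frequent among Hox genes than among coding genes as a whole, while peaks were rarer. By the same definition 24 of 38 Hox genes (63.2%) had a CpG-rich promoter, against 33.4% of all coding genes. Of these 24, 10 were marked in control (41.7%), 6 in LSD1-LKO (25%) and 0 by LSD1. Of the 14 other Hox genes, 2 were marked in control (14.3%) and 3 in LSD1-LKO (21.4%), beside 42.1% and 42.5% for the 14558 coding genes without a CpG-rich promoter. The median observed-to-expected CpG ratio was 0.696 in the genes marked in both lists, 0.688 in those marked only in control, 0.704 in those marked only in LSD1-LKO and 0.59 in the unmarked, and the 4 groups overlapped widely.

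**Figure D1:**
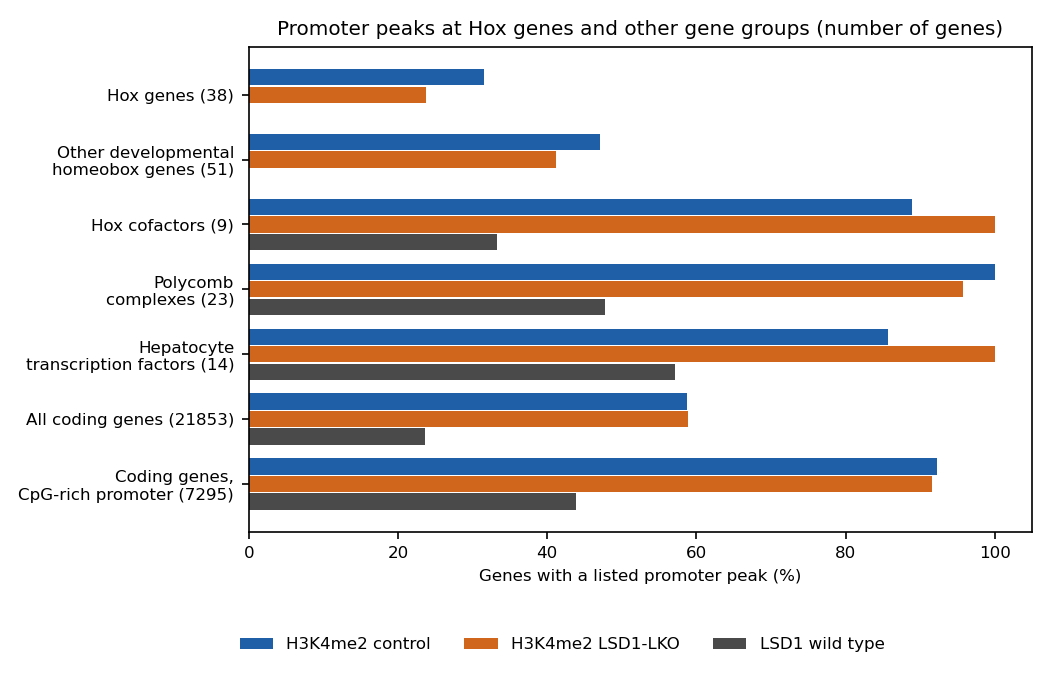
Share of genes with a listed promoter peak (percent, x axis) for Hox genes, the comparison groups and all coding genes, with the number of genes in parentheses and 1 bar per list, so that a missing bar is a share of 0. The bars of Hox genes are at 31.6% in control and 23.7% in LSD1-LKO, under those of the other 6 groups drawn, and they have no LSD1 bar. The ParaHox and Evx genes, at 12.5% in control, and the cell-type markers are not drawn.

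The 38 genes fell into 4 classes. H3K4me2 was listed in both lists at 5 promoters (Hoxa6, Hoxa7, Hoxd1, Hoxd4 and Hoxd8), or 5 of 38 beside 55.7% of all coding genes. It was listed only in control at 7 (Hoxa4, Hoxa13, Hoxb4, Hoxb5, Hoxb6, Hoxc9 and Hoxd9), beside 3.09% of all coding genes. It was listed only in LSD1-LKO at 4 (Hoxa3, Hoxa5, Hoxa10 and Hoxb7), beside 3.18%. The remaining 22 had no listed promoter peak, beside 38% of all coding genes, namely Hoxa2, Hoxa9, Hoxa11, Hoxb1, Hoxb2, Hoxb3, Hoxb8, Hoxb9, Hoxb13, Hoxc4, Hoxc5, Hoxc6, Hoxc8, Hoxc10, Hoxc11, Hoxc12, Hoxc13, Hoxd3, Hoxd10, Hoxd11, Hoxd12 and Hoxd13. Of the 12 Hox genes marked in control, 7 lacked a peak in LSD1-LKO, beside 5.26% of all genes marked in control. Of the 9 marked in LSD1-LKO, 4 lacked a peak in control, beside 5.4%. These shares were not matched for the rank of the peaks within their list. The median rank percentile was 30.2 (control) and 21 (LSD1-LKO) at marked Hox genes, and 81.7 and 82.2 over all marked coding genes. Over the whole lists, 68.1% of control peaks and 64.1% of LSD1-LKO peaks overlapped a peak of the other list. Whether Hox genes differ from coding genes with similarly low ranks was not tested. Such differences between the lists were not particular to Hox genes. Among 51 other developmental homeobox genes, 6 of the 24 marked in control lacked a peak in LSD1-LKO. In the other direction it was 3 of 21. No peak was shared by the promoters of several Hox genes, so each class count rests on separate peaks.

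Most Hox promoter peaks ranked low in their lists. Peaks were ranked within their list by −log10 p averaged over both libraries, and the rank is given as a percentile. The median percentile of the highest promoter peak was 30.2 at the 12 Hox genes marked in control (range 3.14 to 78.4) and 81.7 over all marked coding genes. It was 21 at the 9 Hox genes marked in LSD1-LKO (range 5.18 to 63.6) and 82.2 over all marked coding genes. Above the middle of the list lay 4 of the 12 control promoters and 2 of the 9 LSD1-LKO promoters. When the q-value had to be 0.05 or lower in each library, control kept Hoxa4, Hoxa7, Hoxd1, Hoxd8 and Hoxd9 and LSD1-LKO kept 0 Hox promoters, whereas 53.9% and 51.8% of all coding genes kept a promoter peak. A limit of 1e-05 on the p-value of each library left 0 Hox promoters in either list, beside 47.4% and 44.6% of all coding genes.

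**Figure D2:**
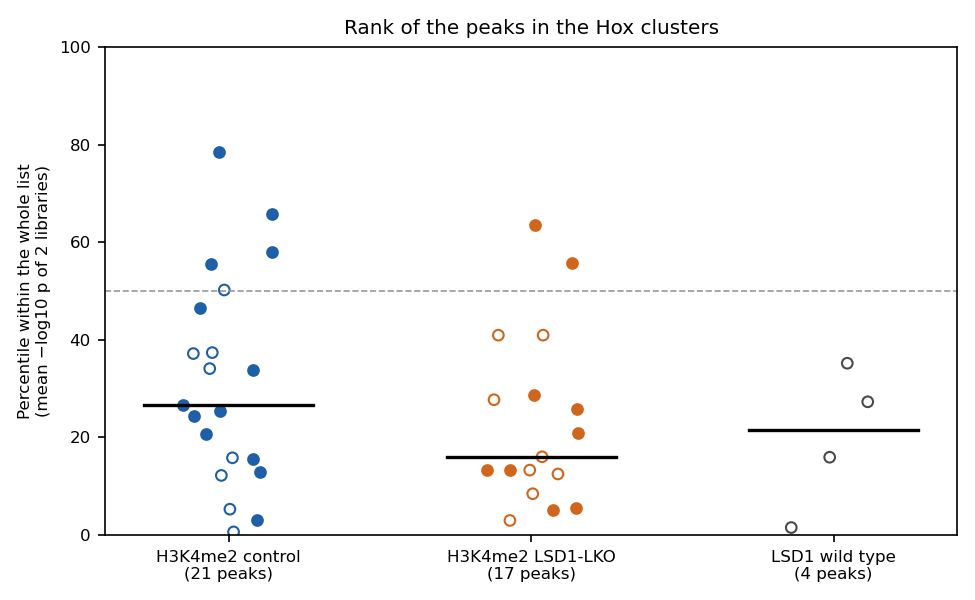
Percentile of each peak of the 4 Hox clusters within its whole list (y axis, by the mean −log10 p of the 2 libraries) for the 3 lists, with filled points for peaks centered on a promoter, open points for other peaks, a black line at the median and a dashed line at the middle of the list. The medians were 26.6 in control, 16 in LSD1-LKO and 21.6 for LSD1, all under the middle.

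Among the promoters marked in both lists, Hoxa7 and Hoxd8, central genes of their clusters, ranked highest within the LSD1-LKO list. Fold enrichment is the MACS value for enrichment of ChIP over control. It is given for the first-listed and the second-listed library of a list, in that order. At Hoxa7 it was 3.08 and 6.84 in control (65.8th percentile) and 2.38 and 6.34 in LSD1-LKO (63.6th percentile), while the covered promoter length was 1124 bp and 413 bp. At Hoxd8 it was 3.73 and 4.15 in control (46.5th) and 2.22 and 5.31 in LSD1-LKO (55.7th), with 526 bp and 441 bp covered. The lists differ in length, so a percentile places a peak among those of its own list and a shift between lists is no measured change.

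The other 3 genes marked in both lists were at or under the 33.7th percentile of each list. Hoxd1, an anterior gene, had folds of 4.10 and 3.03 in control (33.7th percentile) and 2.65 and 3.43 in LSD1-LKO (28.7th), and its covered length was 767 bp and 335 bp. Hoxd4 had 2.61 and 3.60 in control (20.6th) and 2.95 and 2.86 in LSD1-LKO (13.3rd), with 721 bp and 320 bp. Hoxa6 had 2.73 and 3.62 in control (24.4th) and 2.95 and 2.02 in LSD1-LKO (5.45th), with 830 bp and 634 bp. The order of the folds in control and LSD1-LKO was not the same in the first-listed and the second-listed library at Hoxd8 and at each of these 3 genes. With the intervals of the first-listed library, the covered length was shorter in LSD1-LKO at all 5 genes marked in both lists. With those of the second-listed library it was longer at 3 of the 5, namely Hoxa6 (460 bp against 596 bp, with control first), Hoxd1 (697 bp and 752 bp) and Hoxd4 (592 bp and 1440 bp), and shorter at Hoxa7 (1043 bp and 1036 bp) and Hoxd8 (1313 bp and 950 bp).

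The genes marked only in control included the widest (Hoxa4) and the highest-ranking (Hoxd9) Hox promoter peak of that list. Hoxd9, a posterior gene active in limb and trunk patterning, ranked highest of all Hox promoters (chr2:74697763-74698252, 78.4th percentile, folds 3.08 and 8.08). Hoxa4 had the longest covered promoter, 1559 bp (chr6:52190861-52192419, 58th percentile, folds 3.41 and 5.72). Hoxa13, the most posterior gene of its cluster and a regulator of limb and genital tract development, had a 338-bp peak at the 55.4th percentile with folds of 2.73 and 6.12. The nearest LSD1-LKO peak lay 7461 bp from the Hoxd9 start, 12373 bp from that of Hoxa4 and 9585 bp from that of Hoxa13.

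The other 4 control-only genes ranked lower. Hoxb4, known for its part in blood stem cells, had 1045 bp and a highest rank at the 26.6th percentile (2.98 and 3.33). Hoxb5 (355 bp, 25.3rd percentile) and Hoxb6 (540 bp, 12.9th percentile) lay next to it. Hoxc9 had 918 bp but was among the weakest peaks of the list (3.14th percentile, folds 2.94 and 1.77), with −log10 p of 1.503 in the second-listed library.

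The genes marked only in LSD1-LKO had peaks of 357 to 424 bp by the first-listed library, none above the 25.8th percentile. By the second-listed library the same peaks were 999 bp wide at Hoxa5, 946 bp at Hoxa3, 846 bp at Hoxb7 and 379 bp at Hoxa10. Hoxb7 had folds of 2.59 and 3.94 (chr11:96286662-96287032, 25.8th percentile), and the nearest control peak lay 12385 bp from its start. Hoxa5, a gene of lung and gut development, had 2.59 and 3.54 (21st percentile), with the nearest control peak 3752 bp away. Hoxa10 had 2.95 and 2.86 (13.3rd percentile), with the nearest control peak 12713 bp away. The Hoxa3 peak (2.22 and 2.86, 5.18th percentile) lay at a distal start of Hoxa3 that overlaps the coding gene Gm28308 and the antisense RNA Hoxaas3, so that its gene is uncertain.

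Covered promoter length was lower in LSD1-LKO at 12 of the 16 Hox genes with a peak in either list and higher at 4, the latter being the genes marked only in LSD1-LKO. Among the 13553 coding genes with a peak in either list, it was lower at 60.1% and higher at 39.4%. By the intervals of the first-listed libraries, the largest decreases were at Hoxa4 (−1559 bp), Hoxb4 (−1045 bp) and Hoxc9 (−918 bp). The largest increases by them were at Hoxa10 (424 bp), Hoxa3 (422 bp) and Hoxb7 (371 bp). By the second-listed library, Hoxa5 had the widest of the peaks marked only in LSD1-LKO (999 bp) and Hoxa10 the narrowest (379 bp). Over the 38 genes the covered length averaged 242 bp (control) and 97.8 bp (LSD1-LKO), or 40.3% of the control length. Over all coding genes it was 884 bp and 814 bp (92.1%), and over those with a CpG-rich promoter 1539 bp and 1418 bp (92.1%).

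The size of this difference depended on which library set the intervals. With the intervals of the second-listed libraries, the same 12 and 9 Hox genes were marked, and the mean covered length of the 38 genes was 282 bp (control) and 209 bp (LSD1-LKO), or 74.1%. For all coding genes it was then 1042 bp and 1075 bp (103%). Covered length was lower in LSD1-LKO at 9 and higher at 7 Hox genes in that library. Among all 21853 coding genes it was lower at 5718 and higher at 7002, the opposite order to that of the first-listed library.

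**Figure D3:**
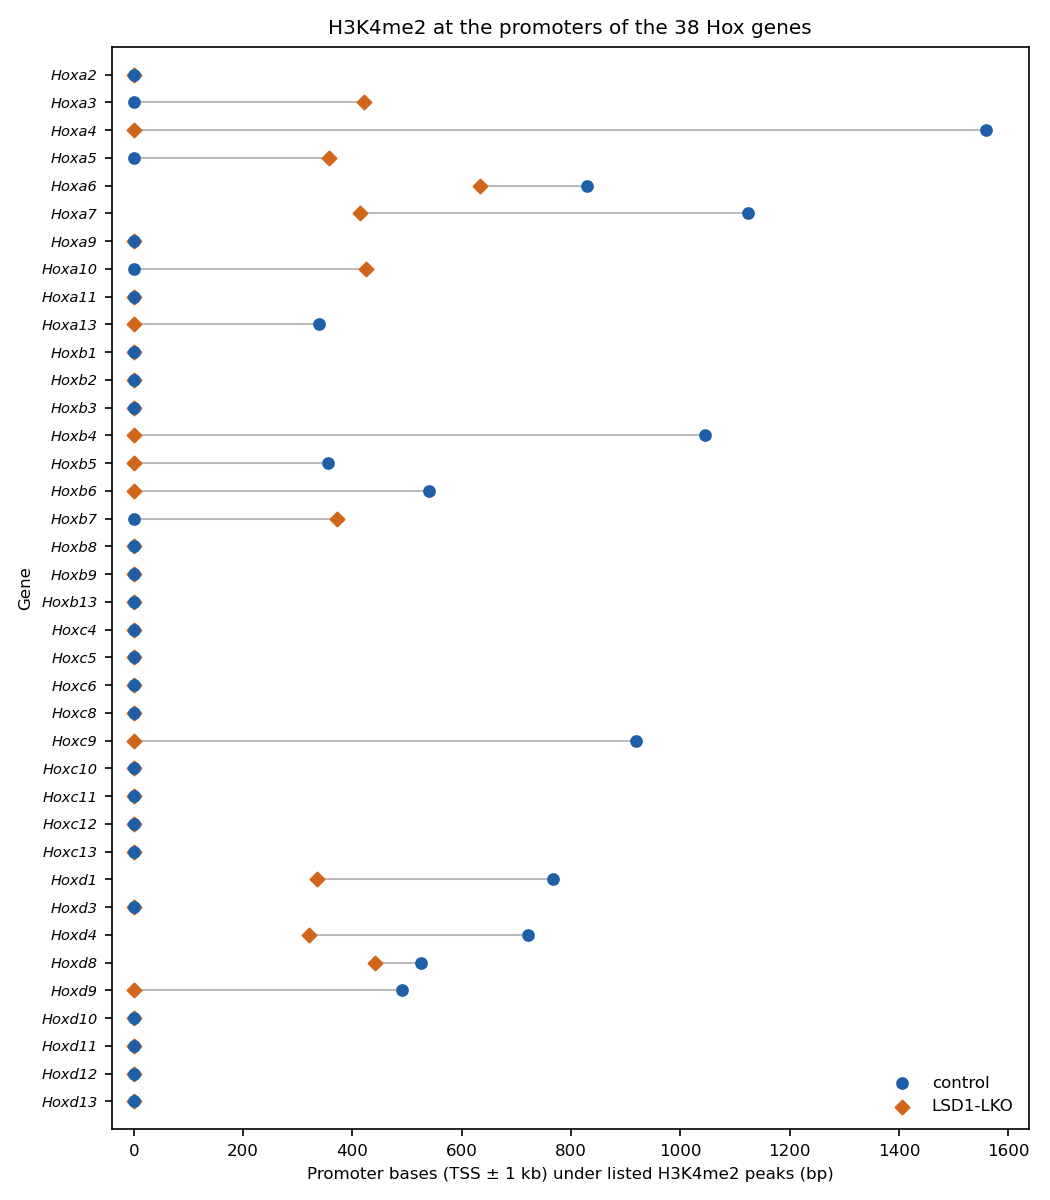
Promoter bases (within 1 kb of any start) under listed H3K4me2 peaks at each of the 38 Hox genes (x axis, bp) in control (circles) and LSD1-LKO (diamonds), joined by a line, from the intervals of the first-listed library. Decreases run from 85 bp at Hoxd8 to 1559 bp at Hoxa4, 4 genes show the opposite change, and 22 genes lie at 0 in both lists.

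Promoter peaks were most frequent among the central genes of the clusters. Central paralogues (numbers 4 to 8) were marked at 8 of 15 promoters in control (53.3%, interval 30.1% to 75.2%) and 6 of 15 in LSD1-LKO (40%). Of all coding genes 58.8% and 58.9% were marked, so the central share in control was near that of coding genes as a whole. Of the 15 central genes, 9 had a CpG-rich promoter. Posterior paralogues (9 to 13) were marked at 3 of 16 in control (Hoxa13, Hoxc9 and Hoxd9) and 1 of 16 in LSD1-LKO (Hoxa10), although 13 of the 16 had a CpG-rich promoter. Anterior paralogues (1 to 3) were marked at 1 of 7 in control (Hoxd1) and 2 of 7 in LSD1-LKO (Hoxa3 and Hoxd1), and 2 of the 7 were CpG-rich. The mean covered promoter length is given by the intervals of the first-listed libraries, for control and LSD1-LKO. It was 447 bp and 169 bp at central genes, 110 bp and 108 bp at anterior genes and 109 bp and 26.5 bp at posterior genes. By the second-listed libraries, the central genes Hoxa6 and Hoxd4 had a longer covered length in LSD1-LKO, and Hoxa7 and Hoxd8 a shorter one.

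The clusters also differed. In control and LSD1-LKO, respectively, 4 and 5 of 10 Hoxa promoters, 3 and 1 of 10 Hoxb, 1 and 0 of 9 Hoxc and 4 and 3 of 9 Hoxd promoters were marked. Among the Hoxa genes described, only Hoxa6 and Hoxa7 were marked in both lists. All 3 marked Hoxb genes of control (Hoxb4, Hoxb5 and Hoxb6) had no LSD1-LKO promoter peak, and Hoxb7, the next gene of the same row, had one in LSD1-LKO only. In Hoxd the same genes were marked in both lists except Hoxd9.

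Over the cluster spans with 10 kb on each side, except 0.1 kb on the Hoxa2 side of Hoxa (555.1 kb in all), there were 21 control peaks, 17 LSD1-LKO peaks and 4 LSD1 peaks. The spans run over the genes described in Hoxa (chr6:52162417-52260880), Hoxb (chr11:96194316-96368256), Hoxc (chr15:102921103-103036852) and Hoxd (chr2:74668310-74765142), with a GC content of 48.4% to 49.8%. By the intervals of the first-listed libraries, H3K4me2 peaks covered 2.31% of these bases in control and 1.3% in LSD1-LKO, so that the LSD1-LKO list covered 56.2% as many bases as the control list. Over the whole genome it covered 97.7% as many (1.47% and 1.44% of bases), and over all coding genes with 10 kb around 96.6% as many (2.71% and 2.61%).

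With the intervals of the first-listed libraries, fewer bases were covered in LSD1-LKO in each cluster. H3K4me2 then covered 4.15% of Hoxa in control and 3.51% in LSD1-LKO, 1.54% and 0.477% of Hoxb, 1.81% and 0.808% of Hoxc, and 2.47% and 1.18% of Hoxd. With those of the second-listed libraries it covered 4.43% and 4.57% of Hoxa, 2.34% and 1.3% of Hoxb, 1.93% and 1.63% of Hoxc, and 3.56% and 3.14% of Hoxd, so that Hoxa showed no fall. The number of peaks was 6 and 8 in Hoxa, 7 and 3 in Hoxb, 3 and 2 in Hoxc and 5 and 4 in Hoxd. By the first-listed libraries, peaks in the clusters had a median width of 526 bp (control) and 422 bp (LSD1-LKO). Over the whole lists it was 648 bp and 565 bp. The order of the widths depended on the library at some places. At Hoxd4 they were 721 bp (control) and 320 bp (LSD1-LKO) by the first-listed and 592 bp and 1440 bp by the second-listed library. At Hoxd8 they were 526 bp and 441 bp, and 1313 bp and 950 bp.

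**Figure D4:**
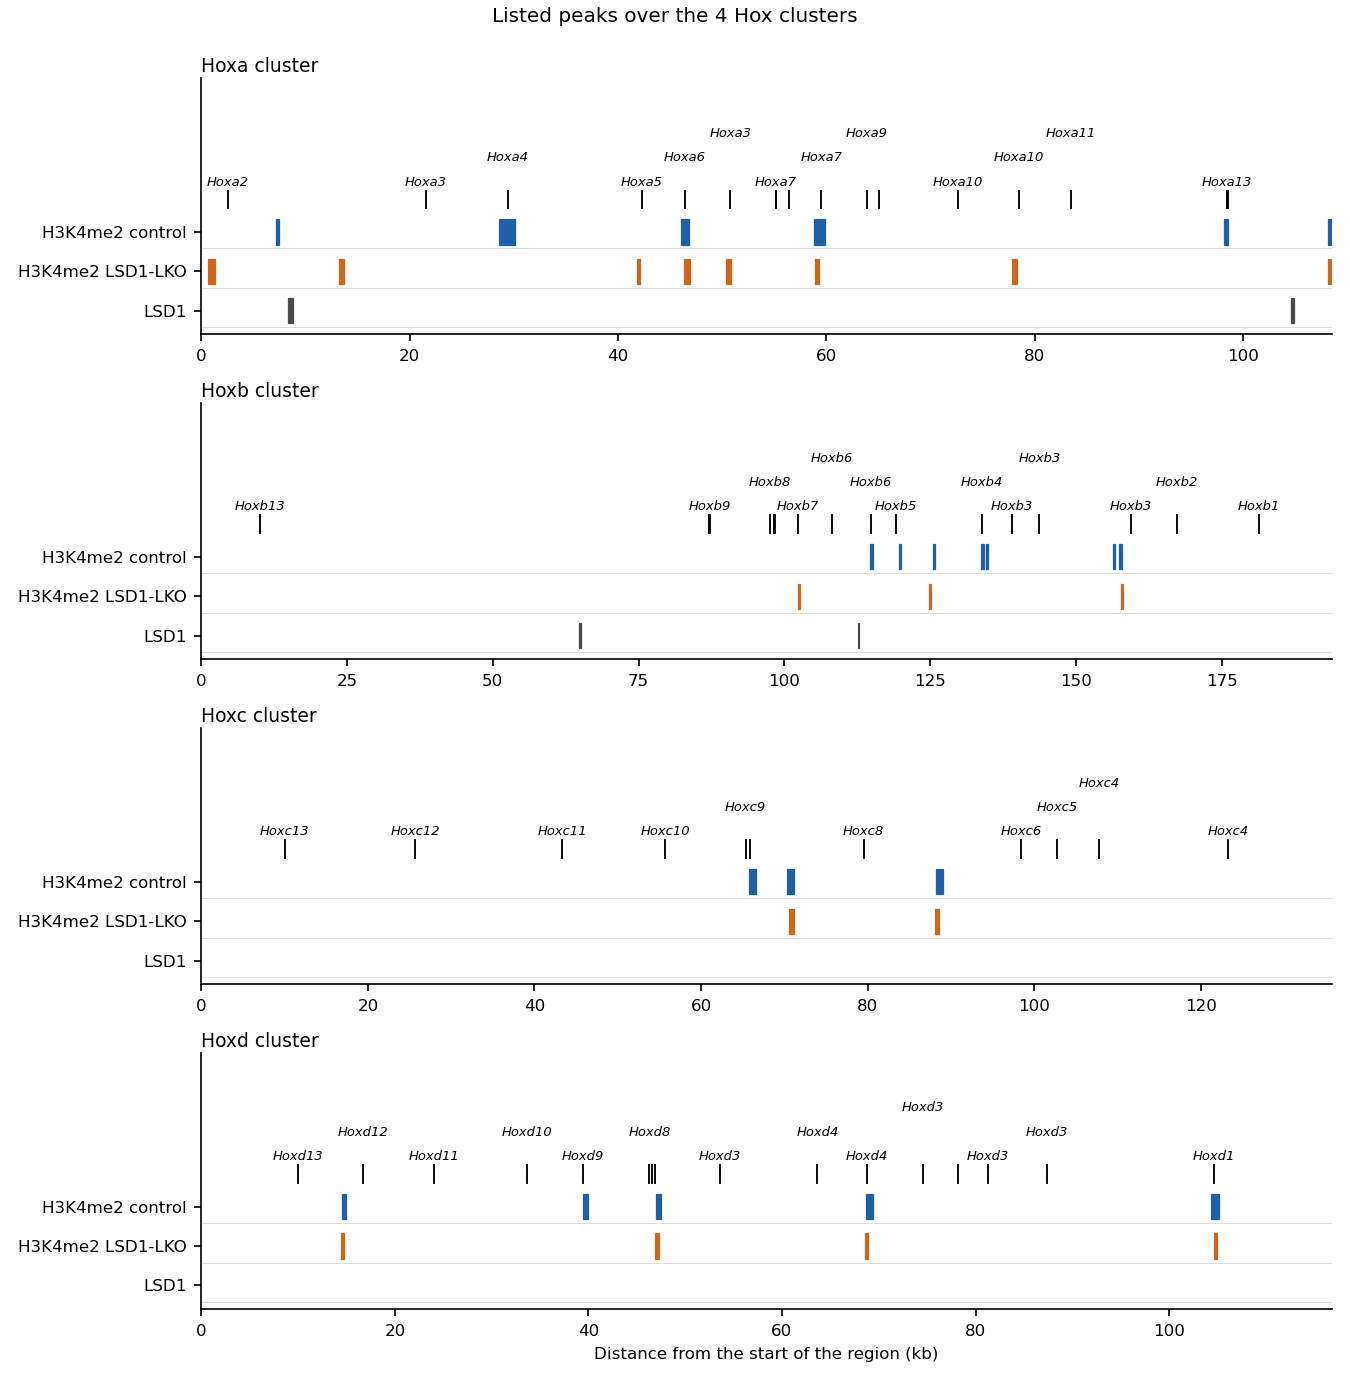
Listed peaks of the 3 lists over the 4 Hox clusters (x axis, kb from the start of the region, which begins 10 kb outside the first gene drawn, or 0.1 kb in Hoxa), with black ticks at the starts of protein-coding Hox transcripts and peaks drawn to scale. Control has 21 peaks and LSD1-LKO 17, the stretch from Hoxc13 to Hoxc10 has none in any list, and the 4 LSD1 peaks lie apart from the H3K4me2 peaks in Hoxa and Hoxb.

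Of the 21 control peaks, 10 overlapped an LSD1-LKO peak (47.6%), compared with 68.1% of all control peaks. In the other direction, 10 of the 17 LSD1-LKO peaks had a control partner (58.8%), near the 64.1% of all LSD1-LKO peaks. Ranks were low, since 9 of 21 control peaks and 10 of 17 LSD1-LKO peaks lay under the 25th percentile of their list. Only 1 of the 21 control peaks had p-values of 1e-05 or lower in each library (4.76%, beside 36.9% of the whole list), and 0 of 17 in LSD1-LKO (beside 30.3%).

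That control peak lay in Hoxc6, outside the promoters of protein-coding transcripts (chr15:102999310-103000090, 781 bp, 50.2nd percentile, folds 3.85 and 4.32). It was in an intron of Hoxc6, within the span of Hoxc5 as well, 9093 bp from the nearest start of a protein-coding Hox transcript (Hoxc8), and LSD1-LKO had a 428-bp peak at the same place (12.5th percentile, folds 1.91 and 3.54). When starts of all annotated transcripts of coding genes were used, a choice made after the values were seen, it counted as a Hoxc6 promoter peak in both lists, Hoxb3 was added in control, and the counts became 14 in control and 10 in LSD1-LKO.

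Away from coding promoters, 5 places had overlapping peaks in both lists. The exon peak of Hoxc9 was listed at chr15:102981457-102982213 in control (34.1st percentile) and chr15:102981613-102982281 in LSD1-LKO (41st percentile). A peak between Hoxd13 and Hoxd12 was listed at chr2:74672887-74673269 in control (37.2nd) and chr2:74672759-74673035 in LSD1-LKO (16th). A peak outside the Hoxa13 end of the cluster was listed at chr6:52270540-52270913 (12.2nd) and chr6:52270465-52271050 (41st). The peak in an intron of Hoxb3 was listed at chr11:96341800-96342161 (37.4th) and chr11:96342074-96342350 (27.7th), and the Hoxc6 intron peak is the fifth.

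By the position of the peak center, 13 of 21 control peaks were at promoters of coding genes, 2 in exons, 3 in introns and 3 outside coding genes. In LSD1-LKO they numbered 9, 2, 3 and 3 of 17. The difference in peak number was therefore at promoters, and the other peaks numbered 8 in each list.

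When peaks closer than 1 kb were joined into domains, the widest Hox domain of control was at Hoxa4 (1559 bp, the 66th percentile of domain widths in that list), followed by the Hoxb3 intron (1428 bp), Hoxb4 (1263 bp) and Hoxa7 (1124 bp). The median domain width was 1025 bp over the whole control list and 925 bp over that of LSD1-LKO. All these widths come from the intervals of the first-listed libraries. By them no domain of the Hox clusters in LSD1-LKO was wider than 676 bp, the width of the exon peak in Hoxa2. By the second-listed library, LSD1-LKO peaks were 1440 bp wide at Hoxd4, 1154 bp in the Hoxb3 intron and 1143 bp in the Hoxc6 intron. The Hoxa4 peak of control was then 1800 bp wide.

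The clusters held 4 LSD1 peaks, none of them within 1 kb of a coding start. In Hoxa, 1 peak lay in an intron of Hoxa3 (chr6:52170610-52171153, 15.9th percentile, folds 2.07 and 2.94), and 1 lay over an exon of Hottip, a long non-coding RNA at the posterior end of the cluster (chr6:52266918-52267273, 1.53rd percentile, folds 2.00 and 2.14), and within 1 kb of the start of the small RNA gene Gm27866. In Hoxb, 1 lay within 1 kb of the start of the pseudogene Gm11539, between Hoxb13 and Hoxb9 (chr11:96249162-96249444, 35.2nd percentile, folds 2.37 and 3.39), and 1 in an intron of Hoxb6 (chr11:96296909-96297191, 27.3rd percentile, folds 2.64 and 2.79). Hoxc and Hoxd had none. All 4 were under the middle of the LSD1 list, and 0 of 4 had q-values of 0.05 or lower in each library, beside 14.4% of the whole list.

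LSD1 peaks covered 0.264% of the clusters, beside 0.272% of the genome and 0.443% of coding genes with 10 kb around. By number there were 7.21 LSD1 peaks per Mb in the clusters and 5.51 in the genome, so that neither measure was far from that of the genome. None of the 4 overlapped an H3K4me2 peak of either list, whereas 52.5% of all LSD1 peaks overlapped a control and 53.8% an LSD1-LKO H3K4me2 peak. The nearest LSD1 peak was 1980 bp from a start at Hoxb6, the closest Hox gene, and the median distance was 43.9 kb (largest 131.2 kb, at Hoxc13). For H3K4me2 the median distance was 4.92 kb in control and 5.7 kb in LSD1-LKO.

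Some of the promoter peaks also lay at non-coding genes of the clusters, with which they are shared. The Hoxd1 peaks of both lists lay at the start of Haglr, which is transcribed away from Hoxd1. Of 18 antisense or other long non-coding genes in the spans, 5 had a promoter peak in control, 3 in LSD1-LKO and 0 for LSD1, and Hotair and Hottip had no promoter peak in any list.

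The clusters also hold the miR-10 and miR-196 genes, and H3K4me2 lay near the former. Mature sequences are shown to group them by their seed, bases 2 to 8 in capitals.
mmu-miR-10a-5p: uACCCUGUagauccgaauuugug
mmu-miR-10b-5p: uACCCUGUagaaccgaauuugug
mmu-miR-196a-5p: uAGGUAGUuucauguuguuggg
mmu-miR-196b-5p: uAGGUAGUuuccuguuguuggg

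The miR-10a and miR-10b sequences share a seed, and miR-196a and miR-196b share another. A control peak lay 717 bp from the Mir10a hairpin (chr11:96317165-96317274), which is upstream of Hoxb4, and the nearest LSD1-LKO peak 7715 bp away. The Mir10b hairpin (chr2:74726070-74726137), upstream of Hoxd4, lay 834 bp from a control peak and 711 bp from an LSD1-LKO peak. The nearest H3K4me2 peak was 3369 bp from Mir196a-2, 7855 bp from Mir196b and 21397 bp from Mir196a-1. The control peak near Mir10a is a promoter peak of Hoxb4, and the peaks near Mir10b are those of Hoxd4.

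Other developmental homeobox genes outside the clusters were also marked less often than coding genes in general, but more often than Hox genes. Of 51 such genes (Pax, Lhx, Nkx, Dlx, Irx and others), 24 were marked in control (47.1%), 21 in LSD1-LKO (41.2%) and 0 by LSD1, although 40 of the 51 were CpG-rich. Their median percentiles were 53.2 and 51.1. Mean covered length was 427 bp (control) and 372 bp (LSD1-LKO, 87%), a smaller difference than at Hox genes, and it was lower at 14 and higher at 13 of them. Examples with more coverage in LSD1-LKO were Pax6 (1326 bp and 1570 bp) and Lhx2 (2092 bp and 2125 bp). Examples with less were Lhx1 (1940 bp and 997 bp) and Otx1 (1314 bp and 547 bp). Of 8 ParaHox and Evx genes, the nearest relatives of the Hox genes, Gsx1 was marked in both lists (901 bp and 277 bp) and Cdx4 in LSD1-LKO only (277 bp), while Evx1 and Evx2, which neighbor the Hoxa and Hoxd clusters, were unmarked in both.

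The partners and regulators of Hox genes were marked at most promoters in both lists. TALE homeodomain cofactors, which bind DNA together with Hox proteins, had a promoter peak at 8 of 9 genes in control and 9 of 9 in LSD1-LKO, with LSD1 at 3 (Pbx3, Pbx4 and Meis1). Meis1 had 1974 bp and 1789 bp covered in control and LSD1-LKO. Polycomb genes were marked at 23 of 23 and 22 of 23 (Phc1 had none in LSD1-LKO), with LSD1 at 11, and MLL-type H3K4 methylase genes at 12 and 13 of 13 (Setd1a only in LSD1-LKO), with LSD1 at 7. Ezh2, a Polycomb methyltransferase, had 1869 bp and 1957 bp covered, and Kmt2a, an MLL-type enzyme, 1898 bp and 1757 bp. Hepatocyte transcription factors were marked at 12 and 14 of 14 (Foxa3 and Cebpb only in LSD1-LKO), with LSD1 at 8. The counts of control and LSD1-LKO differed by at most 2 genes in each of these groups and by 3 at the Hox genes and at the other developmental homeobox genes. The groups differ in size, so these counts do not rank them. As shares in control and LSD1-LKO, cofactors had 88.9% and 100%, Polycomb genes 100% and 95.7%, and MLL-type genes 92.3% and 100%. Hepatocyte factors had 85.7% and 100%, Hox genes 31.6% and 23.7%, and other developmental homeobox genes 47.1% and 41.2%.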

How the data were processed

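ChIP-seq of LSD1 in wild-type liver and of H3K4me2 in control and LSD1-LKO liver was described from 3 deposited peak lists. The authors aligned reads to mm10 using Bowtie 2, ran MACS on each library for narrow peaks, and intersected the 2 peak sets of a group in BEDtools (version 2.25.0), without pooling. Each entry of a deposited list pairs a peak of the first-listed library with one of the second-listed library. The fold enrichment (the MACS value for ChIP over control), the −log10 p-values and the −log10 q-values are values of the authors' deposited lists. So is the overlap in bp (another measure). A further 12 per-library columns (integer scores and summit offsets) were not used. Depth is unknown, because the lists hold no reads.

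Positions were those of the first-listed library. Promoters were 1 kb on either side of the 54361 starts of protein-coding transcripts (GENCODE mouse release 21, GRCm38), and no listed peak ran past a chromosome end of that build. A peak's percentile is its rank within its own list, and scores were not compared between lists. CpG content was read from GRCm38.p6. No statistical test was run, since there was 1 list per group. Alternatives covered promoter width, choice of start, MACS thresholds, overlap, intervals and flanks.

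The members and gene lists were chosen with earlier results of these data known. Of the 39 members, 1 and its surroundings are not reported here and are left out of the counts. By the naming rule, every other member is named, and those marked in 1 list only, the 8 with the highest control rank and the 3 with the largest rise and fall are given with values. Noncoding genes, microRNAs and examples from the other gene lists were picked after their values were seen. Overlap code was tested on simulated intervals. Python 3.11.15, numpy 2.4.6, pandas 2.3.3 and matplotlib 3.10.9 were used.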

Additional observations from a re-analysis of the deposited data

How the results depend on the processing

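Values were compared under 11 alternatives and 1 more chosen after the data were seen (starts of all transcripts). Of 70 values, 45 stayed within the limits set for an equal result (1.5 times the count, or the counting interval) and 25 moved. Only the mean change of covered promoter bases could change sign, since the other values are counts or shares. It was negative or 0 under each alternative. Single clusters and genes, some of which reversed with the library, are not among these values. With a limit of 1e-05 on the p-value of each library, the numbers of Hox genes marked in control, in LSD1-LKO and in both were 0, 0 and 0, LSD1 peaks in the clusters 0, covered bases 0.141% in control and 0% in LSD1-LKO, and the mean change of covered promoter bases 0 bp. With a limit of 0.05 on the q-value, these were 5, 0 and 0 genes, 0 LSD1 peaks, 1.01%, 0.195% and −118 bp. The share of cluster bases covered in control and LSD1-LKO was 1.99% and 1.13% from the bases shared by both libraries, 3.23% and 2.58% from the bases of either, 2.58% and 1.4% without flanks and 1.62% and 1.06% with flanks of 50 kb. With only the intervals of the second-listed library it was 2.9% and 2.41%, the mean change was −73.2 bp, and the counts were 12, 9, 0 and 5 genes and 4 LSD1 peaks. A promoter of 500 bp gave a mean change of −98 bp, and one of 2 kb gave 1 Hox gene with an LSD1 promoter peak (Hoxb6). The main values were 12, 9, 0 and 5 genes, 2.31%, 1.3%, −145 bp and 4 peaks. The cause of these shifts was not tested, apart from the thresholds, which leave fewer peaks.

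No paired analysis was possible because the lists carry no replicate numbers. Only peaks found in both libraries are listed, and a peak of a single library is not. Listed Hox peaks are mostly weak, and the depth of the libraries, which sets how many weak peaks are called, is unknown.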
